A study of Musca domestica with 10 samples.

Results

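The change of messenger RNA from the syncytial blastoderm to the gastrula was measured in whole embryos of the house fly, Musca domestica, by comparing the 2 gastrula libraries with the 2 syncytial blastoderm libraries of a 10-library series. The 4 libraries were chosen by their stage labels alone. The other 6 libraries, 2 each of cellular blastoderm, germ band extension and dorsal closure, shared the estimate of the spread in the tests and showed the course of the genes between and after these stages. Each library was made from a pool of 100 frozen embryos, so a pool averages over embryos that need not be at exactly the same point, and 2 biological replicates stand for each stage. On strain, sex, age in hours and rearing nothing is given in the sources used here, and no treatment or genetic change is labelled. The gastrula is the stage at which cells move inward and the germ layers form, and in the syncytial blastoderm the nuclei still divide in a common cytoplasm.

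Early insect embryos live at first on messenger RNA that the mother placed in the egg. During the maternal-to-zygotic transition this RNA is degraded while the nuclei of the embryo start to transcribe their own genes. In Drosophila, the pioneer factor Zelda opens many of the earliest zygotic genes, and the RNA-binding protein Smaug and a cluster of zygotic microRNAs promote decay of maternal transcripts. The comparison here spans both early steps together, cellularization and the onset of gastrulation. Because the reads come from whole embryos, fewer cells of a type and less RNA per cell cannot be told apart, and because levels are relative to the library, a loss of some transcripts raises the share of the rest.

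Reads assigned to genes numbered 75628963 and 49302976 in the gastrula libraries, against 16288442 and 42479342 in the syncytial blastoderm libraries. Levels are given as CPM, the reads of a gene scaled to a library of 1000000 reads after TMM, a scaling that trims extreme genes before it compares libraries. At this depth 3 counts correspond to 0.0416 and 0.0768 CPM at gastrula and to 0.135 and 0.0608 CPM at syncytial blastoderm, so levels below these rest on a few reads. The files name genes by MDOA identifiers, 0 of which matched the reference gene table, so no gene name or function is given and the stage labels were not checked against marker genes. Of the 15803 genes listed, 11286 had enough reads to be tested. Across these, log2 CPM correlated at 0.957 between the gastrula libraries and 0.968 between the syncytial blastoderm libraries, and at 0.832 to 0.859 between libraries of different stage. These correlations are across genes, which are not independent replicates.

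Expression of 713 genes was higher in the gastrula than in the syncytial blastoderm, and that of 558 genes was lower, 6.32% and 4.94% of the genes tested (11.3% together). The rises were mainly large, with a median log2 fold change of 7.83 and quartiles of 5.63 and 9.66. The falls were smaller, with a median of -3.22 and quartiles of -4.30 and -2.51. All 713 rises and all 558 falls were at least 2-fold, and 578 rises but 83 falls reached a log2 change of 5. Among the rises 128 genes had 0 reads in both syncytial blastoderm libraries. With those genes set to the bound that 3 counts over the stage allow, the median rise was 7.06. Calls were made by the quasi-likelihood test of edgeR at a Benjamini-Hochberg adjusted p under 0.05, without pairing the libraries by replicate number. The median log2 difference over all tested genes was 0.24.

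With the replicate number as a block, the same test called 1792 genes higher and 1523 lower, 15.9% and 13.5% of those tested (29.4% together), and the calls made without the block were all among them. The median log2 fold change was 4.11 for the rises with the block (3.55 with genes at 0 set to their bound) and -2.35 for the falls. Each of the 4 libraries moved the counts by more than 1.5 times. Rises and falls without the block numbered 406 and 65 without gastrula replicate 1, 416 and 69 without gastrula replicate 2, 291 and 158 when syncytial blastoderm replicate 1 was left out, and 254 and 121 when syncytial blastoderm replicate 2 was. With the block they numbered 821 and 519, 788 and 572, 784 and 898, and 1098 and 892 without the same libraries in that order. How calls divided by direction depended on the scaling. Rises were 56.1% of the calls with TMM but 39.5% (633 against 968 falls) with total counts, and 54.1% with TMM and the block but 32.3% (1090 against 2285 falls) with total counts and the block.

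**Figure D1:**
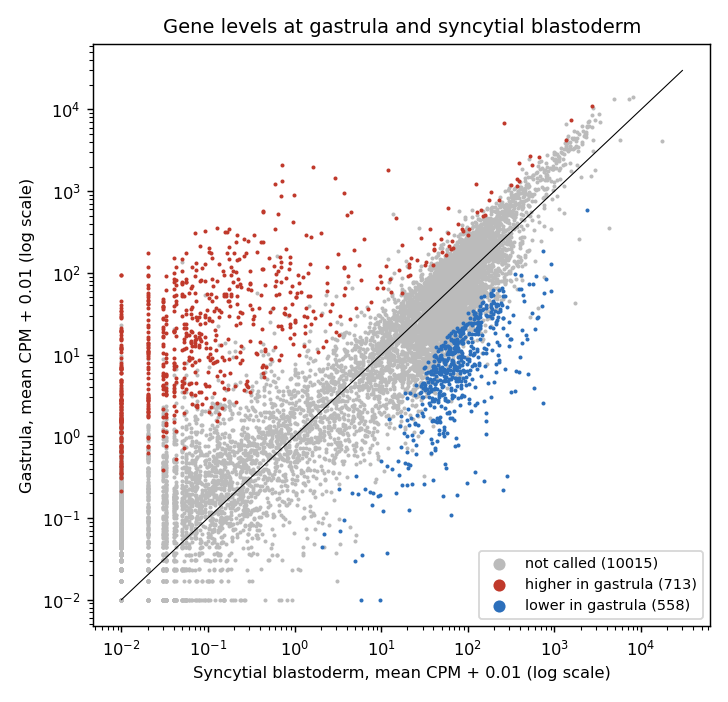
Mean CPM at gastrula (vertical axis) against mean CPM at syncytial blastoderm (horizontal axis) for the 11286 tested genes, both on log scales after adding 0.01, with the line of equal levels. The 713 genes called higher in gastrula lie mostly at the left, where syncytial blastoderm levels are below 1 CPM, and the 558 genes called lower lie mostly at syncytial blastoderm levels above 10 CPM.

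The direction of the change differed with the level at which a gene started. Of the 4116 tested genes with a mean below 1 CPM at syncytial blastoderm, 597 rose (14.5%) and 0 fell. A gene in that bin has little room to fall below its starting level. Of the 1029 genes at 1 to 10 CPM, 59 rose and 19 fell. Of the 4318 genes at 10 to 100 CPM, 35 rose (0.811%) and 353 fell (8.18%), and of the 1823 genes at 100 CPM or more, 22 rose (1.21%) and 186 fell (10.2%). The median log2 fold change of the called rises was 8.34 in the lowest bin and 1.96 in the highest, and that of the falls was -3.24 at 10 to 100 CPM and -3.02 at 100 CPM or more. The bins use the syncytial blastoderm values that also enter the comparison, so these shares are a description.

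The replicate block changed this picture for abundant genes. With it, 357 of the 1823 genes that started at 100 CPM or more rose (19.6%) and 429 fell (23.5%). Of the genes that started at 10 to 100 CPM, 384 rose (8.89%) and 1017 fell (23.6%).

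**Figure D2:**
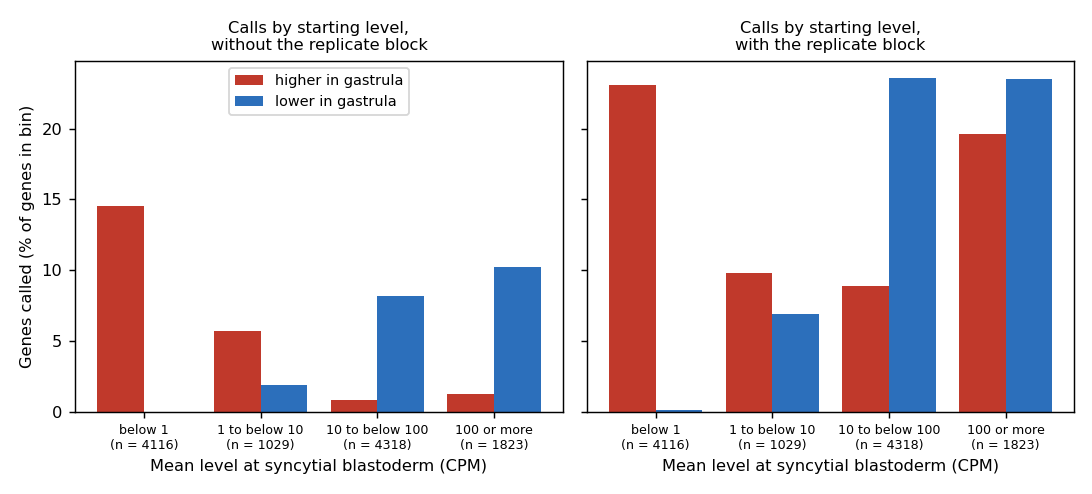
Percentage of genes called higher (red) and lower (blue) in gastrula, by mean CPM at syncytial blastoderm, without the replicate block (left) and with it (right). Rises are most frequent in the lowest bin in both panels (14.5% and 23.1%), and in the highest bin the share of rises is 1.21% without the block and 19.6% with it.

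The genes called higher without the block held a minor share of the gene reads at both stages. Together the 713 rises took 9.09% and 8.05% of gene reads in the gastrula libraries, against 1.44% and 1.68% in the syncytial blastoderm libraries. The 558 falls took 0.753% and 0.627% at gastrula, against 8.08% and 8.04% at syncytial blastoderm. The shares were several times larger for the calls made with the block. The 1792 rises took 53.6% and 54.5% at gastrula, against 24.6% and 29.6% at syncytial blastoderm, and the 1523 falls took 3.55% and 3.01% at gastrula, against 23.3% and 19.7% at syncytial blastoderm. Without the block, the median level of the rises was 19.6 and 16.2 CPM at gastrula, against 0.045 and 0.0608 CPM at syncytial blastoderm, and that of the falls was 7.56 and 7.19 CPM at gastrula, against 66.6 and 71.5 CPM at syncytial blastoderm. These values chose the genes and are given as a description.

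A group of 274 genes was switched on between the stages, in the sense that each stood at or above 10 CPM in both gastrula libraries and under 1 CPM in both libraries of the syncytial blastoderm. Their median was 44.6 and 38.0 CPM at gastrula, against 0.045 and 0.0811 CPM at syncytial blastoderm, where 118 of them had 3 or fewer counts in each library. Of the 274, 270 were called higher, against 6.32% of all tested genes, but the levels that define the group are those the test uses, so nothing is read from this count. Of the 274, 42 reached 100 CPM in both gastrula libraries. In the cellular blastoderm, which the definition does not use, 102 of the 274 already stood at or above 10 CPM in both libraries and 21 were still below 1 CPM in both. At germ band extension 241 of the 274 were at or above 10 CPM in both libraries and 0 were below 1 CPM in both. At dorsal closure, the latest stage, 170 were at or above 10 CPM in both libraries and 14 were below 1 CPM in both.

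The opposite group was smaller: 37 genes stood below 1 CPM in both gastrula libraries after standing at 10 CPM or more in both libraries of the syncytial blastoderm, and are called cleared here. Their median was 0.375 and 0.333 CPM at gastrula, against 29.4 and 28.1 CPM at syncytial blastoderm, and 33 of the 37 were called lower, against 4.94% of all tested genes, a count that the definition again largely fixes. At cellular blastoderm, between the stages compared, their median was 2.54 and 6.07 CPM, and 31 of the 37 were still at or above 1 CPM in both libraries. Their loss was not always lasting, since 5 of the 37 stood at or above 10 CPM in both dorsal closure libraries, while 9 were below 1 CPM in both. By the same floors, 4951 genes (43.9% of those tested) had 10 CPM or more in each of the 4 libraries. They took 94.0% and 95.4% of gene reads at gastrula, against 92.5% and 93.4% at syncytial blastoderm. Of these 4951, 54 rose (1.09%) and 198 fell (4.0%), against 6.32% and 4.94% of all tested genes. With the block 726 rose (14.7%) and 739 fell (14.9%), near the 15.9% and 13.5% of all tested genes. A further 2914 tested genes were below 1 CPM in all 4 libraries, and they took 11.9% and 5.67% of the gene reads at dorsal closure. The filter for testing used all 10 libraries, so genes this low could pass it through later stages alone. Their share at dorsal closure follows in part from that filter and is a description.

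**Figure D3:**
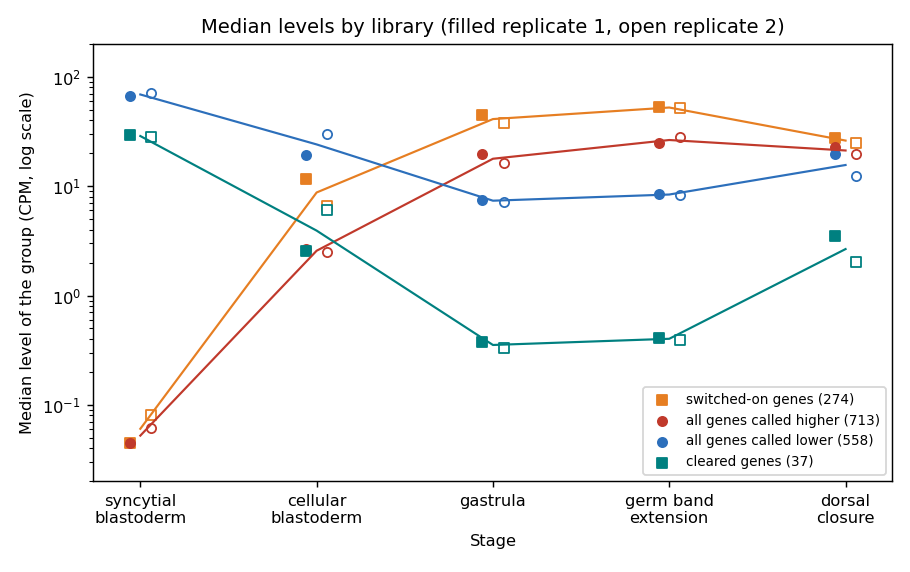
Median CPM (log scale) in each library over the 5 stages for the 713 genes called higher, the 274 switched-on genes, the 558 genes called lower and the 37 cleared genes, with filled symbols for replicate 1, open symbols for replicate 2 and lines through the geometric means of both. The medians of the cleared genes are 3.49 and 2.03 CPM at dorsal closure, against 0.375 and 0.333 CPM at gastrula.

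Measured in log2 CPM, the change over both early steps was already well under way at cellular blastoderm. On the log2 CPM scale, with syncytial blastoderm at 0 and gastrula at 1 for each gene, the median position of the cellular blastoderm mean was 0.578 for the rises (quartiles 0.371 and 0.788) and 0.470 for the falls (quartiles 0.331 and 0.653). The cellular blastoderm lay between the other stages for 654 of the 713 rises and 517 of the 558 falls. It lay beyond the gastrula level for 46 rises and 30 falls. The replicate series differed in this respect. Cellular blastoderm replicate 1 stood further along than replicate 2, with median positions of 0.630 and 0.539 for the rises and 0.553 and 0.408 for the falls. Both ends of the scale are the libraries that chose the genes, so positions are a description.

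After gastrulation some of the called genes stood nearer to their syncytial blastoderm level again, by their measured levels. By dorsal closure 94 of the 713 rises (13.2%) had a mean log2 CPM closer to the syncytial blastoderm level than to the gastrula level. The same held for 229 of the 558 falls (41.0%). The difference between these shares was not tested, and they cannot be compared directly. To pass the midpoint, a larger change must reverse by more log2 units, and the rises were mainly larger than the falls. The gastrula values also chose the genes, so some return can come from that choice alone. No such share was made over all genes. Both dorsal closure libraries stood above both gastrula libraries for 244 of the rises, and both stood below both gastrula libraries for 126 of the falls. Both dorsal closure libraries were back at or below the syncytial blastoderm level for 22 rises, and back at or above it for 38 falls. Over all tested genes, 17.8% were called higher and 12.5% lower at dorsal closure than at gastrula (26.9% and 25.3% with the block). Library counts by the same rules were not made over all genes, so nothing is read from them about the rises or falls. The median level of the falls was 19.6 and 12.5 CPM at dorsal closure, against 7.56 and 7.19 CPM at gastrula.

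The rises with the highest fold changes that still had at least 10 reads at syncytial blastoderm were 8 genes, and all of them moved from traces to high levels. MDOA010623 reached 2108 and 2026 CPM in the gastrula libraries, against 0.585 and 0.831 CPM at syncytial blastoderm, and its log2 fold change was 11.49 with an SE of 1.55 (edgeR adjusted p = 0.00287). It was 1 of 2 among the 8 that fell again by dorsal closure in the test without the block, where 12.5% of all tested genes were lower than at gastrula and 17.8% higher, and stood there at 0.487 and 5.62 CPM (edgeR adjusted p = 0.00454 against gastrula). MDOA009597 had 266.7 and 357.7 CPM at gastrula, against 0.135 and 0.162 CPM at syncytial blastoderm (log2 fold change 10.99 ± 0.78, edgeR adjusted p = 0.000403). It was the other of the 2, with 3.94 and 6.83 CPM at dorsal closure (edgeR adjusted p = 0.00341 against gastrula). MDOA012099, by contrast, had 318.6 and 255.7 CPM at gastrula, against 0.225 and 0.182 CPM at syncytial blastoderm (log2 fold change 10.47 ± 0.74, edgeR adjusted p = 0.000403), and stood at 174.3 and 238.7 CPM at dorsal closure. With the block 5 of the 8 were lower at dorsal closure than at gastrula, against 25.3% of all tested genes lower and 26.9% higher, the other 3 being MDOA002906, MDOA014209 and MDOA005617 (edgeR adjusted p = 0.0198, 0.0267 and 0.0328). The 8 genes were chosen for high gastrula values, which also enter the test against dorsal closure. A later fall is favoured by that choice, so these counts are a description. In MDOA010623, MDOA009597 and MDOA012099 the libraries of a stage lay close together and the stages were far apart.

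Other genes of the 8 rose as far, with more spread between replicates at gastrula, at syncytial blastoderm or at both. For MDOA014209 and MDOA005617 that spread was at syncytial blastoderm alone. It rested there on 2 and 12 reads for MDOA014209 and on 1 and 13 reads for MDOA005617. MDOA002906 had 576 and 1844 CPM at gastrula, against 0.045 and 1.11 CPM at syncytial blastoderm (log2 fold change 10.94 ± 1.76, edgeR adjusted p = 0.0061), and replicate 2 was the higher library at both stages. MDOA013618 had 1894 and 796.4 CPM at gastrula, against 0.675 and 0.750 CPM at syncytial blastoderm (log2 fold change 10.87 ± 1.22, edgeR adjusted p = 0.00135). MDOA014209 averaged 347 ± 34.5 CPM at gastrula and 0.167 ± 0.108 CPM at syncytial blastoderm (SD, n = 2), MDOA005617 averaged 316 ± 18.4 and 0.154 ± 0.154 CPM at the same stages, and MDOA009271 averaged 206 ± 134 and 0.163 ± 0.0875 CPM. Their log2 fold changes were 10.91, 10.83 and 10.38 in that order, with edgeR adjusted p of 0.000755, 0.00296 and 0.00187. The 8 genes remained called under each alternative that was run.

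All 8 of these genes had already risen by the cellular blastoderm in edgeR's test of that step (adjusted p from 0.00103 to 0.0239), a step at which 2.29% of all tested genes rose and 0.452% fell. MDOA010623 stood at 1027 and 481.4 CPM there, and MDOA014209 at 87.2 and 23.6 CPM. From cellular blastoderm to gastrula 0 of the 8, and 0 of all 11286 genes, passed edgeR's test without the block (1424 genes had an unadjusted p under 0.05). With the block 3.87% of tested genes rose and 2.81% fell at that step, among them 4 of the 8 that rose: MDOA014209, MDOA009597, MDOA012099 and MDOA013618 (edgeR adjusted p = 0.0178, 0.0185, 0.0323 and 0.035). The tests of the steps share libraries with each other and with the comparison over both steps.

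Among genes with at most 3 reads in each syncytial blastoderm library, the highest at gastrula were 4. MDOA015132 had 237.6 and 111.8 CPM at gastrula, against 0.135 and 0.0608 CPM at syncytial blastoderm (edgeR adjusted p = 0.00404). MDOA005114 had 212.3 and 135.9 CPM at gastrula, against 0 and 0.0203 CPM (edgeR adjusted p = 0.000639), and MDOA006870 had 184.4 and 122.8 CPM, against 0 and 0.0608 CPM (edgeR adjusted p = 0.000639). MDOA000278 had 279.7 and 66.9 CPM at gastrula, against 0.0901 and 0 CPM (edgeR adjusted p = 0.02). Replicate 1 was the higher gastrula library for each of the 4. The sizes of these rises are poorly bounded, because the syncytial blastoderm libraries held 6, 1, 3 and 2 reads in total for MDOA015132, MDOA005114, MDOA006870 and MDOA000278. The ratios of gastrula to syncytial blastoderm levels over both libraries were 2305 (95% interval for counting error alone, 1059 to 6283), 13260 (2380 to 523900), 3880 (1327 to 18810) and 7329 (2029 to 60520) in the same order. MDOA000278 was no longer called without gastrula replicate 1 or without syncytial blastoderm replicate 1 or 2 (edgeR adjusted p = 0.0523, 0.0953 and 0.147), nor MDOA015132 without syncytial blastoderm replicate 2 (edgeR adjusted p = 0.0536).

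**Figure D4:**
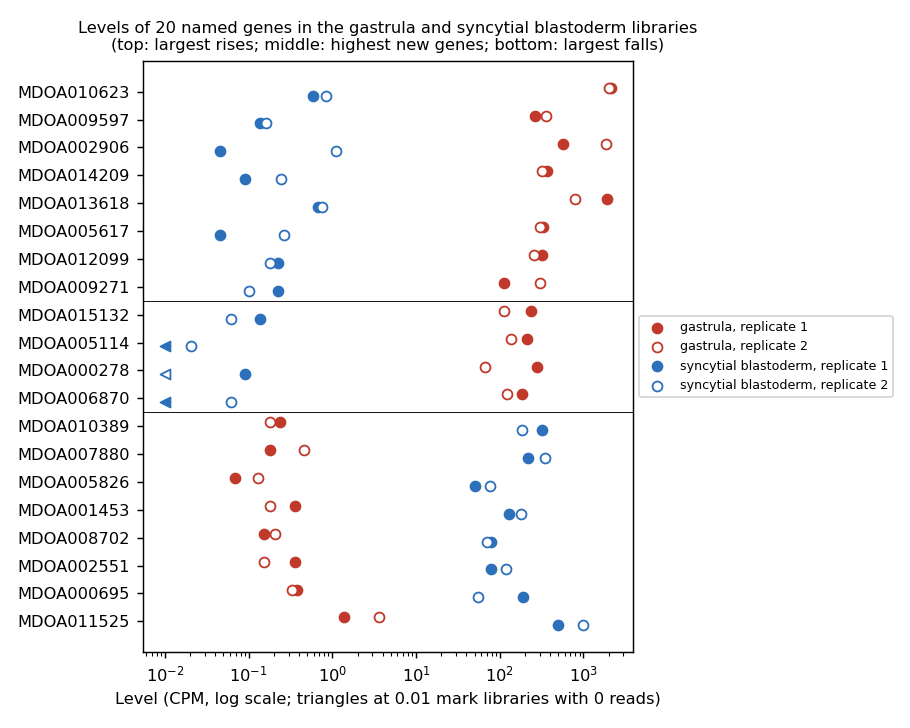
CPM (log scale) in each gastrula library (red) and syncytial blastoderm library (blue) for 8 genes with the largest rises, 4 genes with the highest gastrula levels among those with at most 3 reads in each syncytial blastoderm library, and 8 genes with the largest falls; filled symbols are replicate 1 and open symbols replicate 2. In each of the 20 genes the libraries of the stages are far apart, as for MDOA010389 at 0.236 and 0.179 CPM at gastrula, against 324.5 and 186.4 CPM at syncytial blastoderm.

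The falls with the highest fold changes, among genes with at least 10 reads at gastrula, were 8 genes that ended with small remainders of their starting levels. MDOA010389 had 0.236 and 0.179 CPM in the gastrula libraries, against 324.5 and 186.4 CPM at syncytial blastoderm (log2 fold change -10.24 ± 0.91, edgeR adjusted p = 0.000639). MDOA007880 had 0.18 and 0.461 CPM, against 217.9 and 346.8 CPM (log2 fold change -9.81 ± 1.30, edgeR adjusted p = 0.00268). MDOA001453 had 0.361 and 0.179 CPM, against 130.3 and 177.8 CPM (log2 fold change -9.12 ± 0.82, edgeR adjusted p = 0.000639). The first of these was still at 14.9 and 16.0 CPM at cellular blastoderm, so it lost most of its starting level by then and nearly all of the remainder by gastrula. MDOA001453 was lower still at dorsal closure, at 0.0238 and 0.0241 CPM (edgeR adjusted p = 0.0144 against gastrula).

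MDOA005826 averaged 0.0987 ± 0.0414 CPM at gastrula and 63.4 ± 18.0 CPM at syncytial blastoderm (SD, n = 2; edgeR adjusted p = 0.00521). MDOA000695 had 0.375 and 0.333 CPM at gastrula, against 187.9 and 54.8 CPM at syncytial blastoderm (edgeR adjusted p = 0.0082). Their log2 fold changes were -9.33 and -8.41. MDOA005826 was no longer called without gastrula replicate 1 (edgeR adjusted p = 0.0522), and MDOA000695 was no longer called without gastrula replicate 1 or 2 or syncytial blastoderm replicate 1 (edgeR adjusted p = 0.0674, 0.0621 and 0.0567). Both stayed low afterwards, with at most 0.713 CPM at dorsal closure for MDOA005826 and 0.0238 CPM for MDOA000695.

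The other 3 falls were followed by a return at dorsal closure. MDOA008702 had 0.153 and 0.205 CPM at gastrula, against 79.0 and 71.1 CPM at syncytial blastoderm (log2 fold change -8.71 ± 1.27, edgeR adjusted p = 0.00413), and 38.7 and 4.88 CPM at dorsal closure (edgeR adjusted p = 0.00599 against gastrula). MDOA002551 had 0.361 and 0.154 CPM at gastrula, against 77.8 and 119.4 CPM at syncytial blastoderm (log2 fold change -8.54 ± 1.11, edgeR adjusted p = 0.00242), and 15.3 and 3.84 CPM at dorsal closure (edgeR adjusted p = 0.00776). MDOA011525 had 1.39 and 3.63 CPM at gastrula, against 493.2 and 978.8 CPM at syncytial blastoderm (log2 fold change -8.20 ± 1.45, edgeR adjusted p = 0.00908), and 63.3 and 63.1 CPM at dorsal closure (edgeR adjusted p = 0.0245). The call for MDOA011525 was lost without gastrula replicate 1 or 2 (edgeR adjusted p = 0.0711 and 0.0507). MDOA010389 was also higher at dorsal closure than at gastrula (edgeR adjusted p = 0.0462), but only at 1.39 and 0.362 CPM. These genes were chosen for low gastrula values, which also enter the tests against dorsal closure, so the returns are a description.

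Over the separate steps, the calls for these 8 falls depended on the block. In edgeR without the block 4 of the 8 had fallen by cellular blastoderm, where 0.452% of tested genes fell and 2.29% rose. From there to gastrula 0 of the 8 were called, and also 0 of all 11286 tested genes. With the block all 8 had fallen by cellular blastoderm (edgeR adjusted p from 0.000962 to 0.033), where 4.38% of tested genes rose and 3.63% fell. With it 6 fell again by gastrula (edgeR adjusted p from 0.00394 to 0.0299), where 3.87% of tested genes rose and 2.81% fell. The exceptions at the later step were MDOA008702 and MDOA000695 (edgeR adjusted p with the block = 0.115 and 0.0693), which stood at 1.25 and 1.33 CPM and at 3.01 and 1.56 CPM at cellular blastoderm.

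Measured by the CPM gained rather than by fold change, 5 of the 6 leading genes among those called without the block were already abundant at syncytial blastoderm. Among these called genes MDOA003702 gained most, with 8619 and 13580 CPM at gastrula, against 1829 and 3536 CPM at syncytial blastoderm (log2 fold change 2.05 ± 0.55, edgeR adjusted p = 0.0465). MDOA009468 had 4610 and 9136 CPM, against 133.1 and 394.5 CPM (log2 fold change 4.70 ± 1.04, edgeR adjusted p = 0.0224). MDOA009531 had 6488 and 8180 CPM, against 1488 and 1626 CPM (log2 fold change 2.24 ± 0.53, edgeR adjusted p = 0.0281). MDOA014911 averaged 4235 ± 481 CPM at gastrula and 1352 ± 80.8 CPM at syncytial blastoderm, and MDOA008753 averaged 2723 ± 349 and 518 ± 69.7 CPM (SD, n = 2; edgeR adjusted p = 0.0364 and 0.0161). The sixth was MDOA010623, described above. Gains of similar size were also measured in genes not called without the block. MDOA004626 averaged 13400 CPM at gastrula and 4928 CPM at syncytial blastoderm (edgeR adjusted p = 0.396, and 0.0246 with the block). MDOA010409 averaged 10320 and 2791 CPM (edgeR adjusted p = 0.0793, and 0.00547 with the block). MDOA010420 and MDOA001720 were called in neither fit. MDOA010420 averaged 13550 and 7235 CPM (edgeR adjusted p = 0.765, and 0.855 with the block). MDOA001720 averaged 14180 and 7963 CPM (edgeR adjusted p = 0.375, and 0.0815 with the block).

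The calls for the leading genes that were already abundant stood close to the threshold. That of MDOA003702 was lost with DESeq2's size factors (edgeR adjusted p = 0.0503), with total counts (0.0564), in a fit to the 4 libraries alone (0.0667) and without any of the 10 libraries (0.0584 to 0.306). That of MDOA014911 was lost with total counts (edgeR adjusted p = 0.0925), without the filter on low counts (0.0619), in the 4 libraries alone (0.0597), without each library except dorsal closure replicate 1 (0.0593 to 0.26), and with the block without gastrula replicate 2 (0.069). Those of MDOA009531 and MDOA008753 were lost without any of the 4 gastrula and syncytial blastoderm libraries (edgeR adjusted p from 0.0749 to 0.195), and that of MDOA009468 without either syncytial blastoderm library or gastrula replicate 2 (0.0848 to 0.147). Each of these genes was called with the replicate block (edgeR adjusted p from 0.000246 to 0.00342).

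Among genes called without the block, the losses in CPM were led by MDOA004611, with 663.1 and 517.8 CPM at gastrula, against 2296 and 2422 CPM at syncytial blastoderm (log2 fold change -2.00 ± 0.45, edgeR adjusted p = 0.0239). Larger losses in mean CPM, to 4086 CPM at gastrula, against 17540 CPM at syncytial blastoderm, and to 349.8 against 4234 CPM, were measured in MDOA015658 and MDOA014323, called with the block alone (edgeR adjusted p = 0.039 and 0.000149). At cellular blastoderm MDOA004611 still had 1550 and 2074 CPM, so the larger part of its decline came at the later step (edgeR adjusted p = 0.813 for the earlier step and 0.162 for the later, 0.525 and 0.0253 with the block). MDOA013852 had a like course, with 828.4 and 982 CPM at syncytial blastoderm, then 494.8 and 485 CPM at cellular blastoderm, then 73.6 and 44.8 CPM at gastrula (log2 fold change of gastrula against syncytial blastoderm -3.93 ± 0.65, edgeR adjusted p = 0.00694). By dorsal closure MDOA013852 was at 0.392 and 0.821 CPM. MDOA010034 stood at 183.8 and 172.6 CPM by cellular blastoderm (edgeR adjusted p for that step = 0.0983, and 0.0118 with the block). It had 104.1 and 63.5 CPM at gastrula, against 895.8 and 683.6 CPM at syncytial blastoderm (log2 fold change -3.24 ± 0.59, edgeR adjusted p = 0.00985). It then reached 2310 and 855.4 CPM at dorsal closure (edgeR adjusted p = 0.0041 against gastrula).

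MDOA007463 and MDOA013898 completed this group with MDOA011525. MDOA007463 averaged 127 ± 6.58 CPM at gastrula and 910 ± 542 CPM at syncytial blastoderm, and MDOA013898 averaged 56.4 ± 22.1 and 752 ± 498 CPM (SD, n = 2; edgeR adjusted p = 0.0233 and 0.0197). In both genes the 2 syncytial blastoderm values differed widely, with 526.5 and 1293 CPM for MDOA007463 and 399.7 and 1104 CPM for MDOA013898. Calls in this group were lost when a library was left out, which leaves 1 library for that stage. A lost call therefore does not show that the library left out carried the difference. Without gastrula replicate 2 the edgeR adjusted p was 0.203 for MDOA004611, 0.0676 for MDOA013852, 0.135 for MDOA007463, 0.0839 for MDOA010034 and 0.091 for MDOA013898. Without gastrula replicate 1 it was 0.137 for MDOA004611, 0.159 for MDOA007463, 0.0548 for MDOA010034 and 0.145 for MDOA013898. Without syncytial blastoderm replicate 1 it was 0.0904 for MDOA004611 and 0.0535 for MDOA010034, and with syncytial blastoderm replicate 2 left out it was 0.11 for MDOA004611, 0.143 for MDOA007463 and 0.109 for MDOA013898. With the block and without gastrula replicate 2, MDOA004611 and MDOA007463 were not called (edgeR adjusted p = 0.0554 and 0.0562).

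Some abundant genes did not change detectably between the stages. The most abundant with differences under 0.5 on the log2 scale in both replicate series were MDOA014638, MDOA013873, MDOA005534 and MDOA007396. MDOA014638 had 1350 and 2170 CPM at gastrula, against 1083 and 2011 CPM at syncytial blastoderm, and MDOA005534 had 1526 and 779.5 CPM, against 1581 and 997.5 CPM. Both then dropped by dorsal closure, to 50.3 and 129.3 CPM and to 30.5 and 38.6 CPM (edgeR adjusted p = 0.00432 and 0.0043 against gastrula). MDOA013873 had 2046 and 801.7 CPM at gastrula, against 1708 and 595.2 CPM at syncytial blastoderm, and replicate 1 was the higher library at each of the 5 stages. MDOA007396 had 841.1 and 1462 CPM at gastrula, against 597.6 and 1386 CPM at syncytial blastoderm. The rule that chose these 4 used the differences themselves, so their steadiness is a description.

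The most abundant transcripts took a larger share at gastrula. The 100 most abundant genes of each library held 32.8% and 42.2% of gene reads at gastrula, against 25.5% and 28.2% at syncytial blastoderm, and 83 genes were among the 100 highest by mean at both stages. Of the 100 genes with the highest mean over all 10 libraries, 8 rose, near the 6.32% of all tested genes, and 0 fell, against 4.94%. The mean that chose these 100 genes includes the libraries compared, and most of its libraries are later than the syncytial blastoderm. Genes higher at later stages are favoured by that choice, so the counts are a description. With the replicate block 79 of the 100 rose and 1 fell, against 15.9% and 13.5% of all tested genes. The number of these rises moved with the scaling and the libraries, alternatives that were added after seeing the data. With total counts and the block 43 rose and 3 fell, where 1090 of all 11286 tested genes rose and 2285 fell. With TMM and the block 39 and 14 rose when gastrula replicate 1 or 2 was left out, and 33 and 54 when syncytial blastoderm replicate 1 or 2 was left out.

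The replicate series showed much the same change. Across the tested genes, the log2 differences of gastrula minus syncytial blastoderm correlated at 0.866 between replicate 1 and replicate 2. A 4-fold or larger difference was seen for 3042 genes in replicate 1 and 2905 in replicate 2. Of these, 2104 changed by this much in the same direction in both series (1254 higher and 850 lower in gastrula), and 15 did so in opposite directions. Within a stage, 1125 genes differed 4-fold or more between the gastrula libraries and 932 between the syncytial blastoderm libraries. The SD over genes of the log2 difference was 2.51 and 2.43 between stages in the replicate series, against 1.25 between the gastrula libraries and 1.21 between the syncytial blastoderm libraries.

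**Figure D5:**
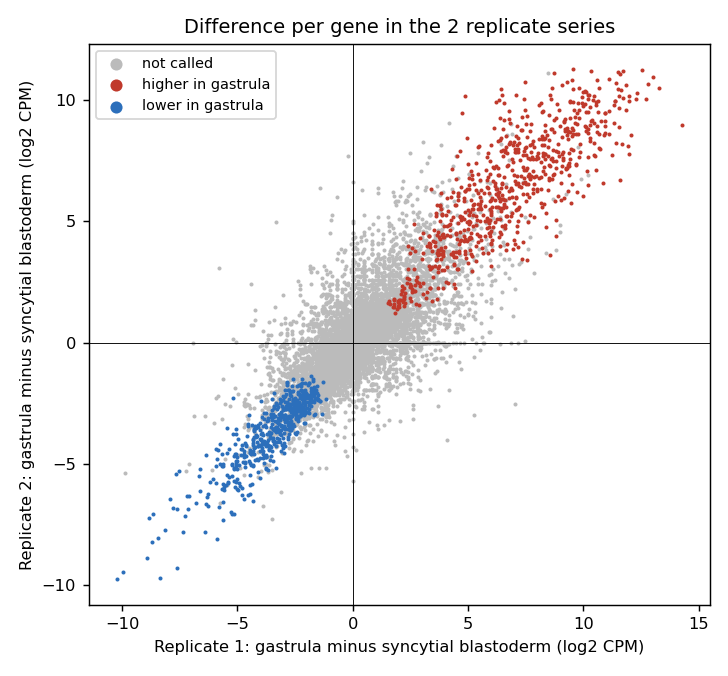
Difference in log2 CPM of gastrula minus syncytial blastoderm for each of the 11286 tested genes, replicate 1 on the horizontal axis and replicate 2 on the vertical axis, with genes called higher in red and genes called lower in blue. All 713 rises lie at the upper right and all 558 falls at the lower left, which the calls largely fix, since they use the same values. Of all tested genes with a read in these 4 libraries, 78.3% changed in the same direction in both series.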

How the data were processed

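RNA was measured in 10 libraries of pooled whole embryos, sequenced as paired reads of 100 bp with an insert of 200 bp, per the labels' protocols. The authors' deposited files hold raw counts per gene. STAR and HTSeq are listed in the submitters' processing notes. Of versions, genome build, annotation, strand setting and filters nothing is given in the sources used here, so overlapping, antisense and near-identical genes may share or lose reads. The 5 closing rows were left out of library sizes: 10.5% to 25.0% of reads lay in no gene, 5.31% to 10.7% had several alignments and 0.353% to 0.661% hit several genes.

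Tests used R 4.3.3 with edgeR 4.0.16 (filterByExpr by stage, TMM, robust quasi-likelihood, 1 coefficient per stage, all 10 libraries, 5 residual degrees of freedom, 4 with the block). Log2 CPM adds a prior count of 2. The SE of a log2 fold change is that change, unshrunken, over the root of the F statistic. Alternatives were DESeq2 1.42.0, limma-voom (limma 3.58.1), 3 other scalings, other filters, thinned counts and left-out libraries.

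Replicate 2 minus replicate 1 differences correlated between stages in all 10 pairs of stages (0.321 to 0.608, and 0.458 for gastrula and syncytial blastoderm). The labels do not tie the replicate numbers to a batch. The numbers were taken to pair the libraries in the replicate series and in the fits with the block. The calls without the block, which chose the named genes, left this pairing out. edgeR's common biological coefficient of variation came to 0.693, and to 0.461 with the block. The replicates of neither compared stage agreed within sampling noise. Whether replicates came from separate parents is not given, so p-values measure the spread between these pools.

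Named genes were, among called genes whose stages did not overlap, the 8 largest rises and 8 largest falls with 20 CPM or more on average in the higher stage and at least 10 reads in the lower, and the 6 largest gains and losses in mean CPM. To these were added the 4 highest at gastrula among called genes with at most 3 reads in each syncytial blastoderm library, and the 4 most abundant steady genes. The comparison, the floors of 1 and 10 CPM and the rules were chosen with earlier results of these data known. Lists of named regulators and cell type markers were prepared but could not be applied to identifiers without names. Intervals and floors cover counting error only.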

Additional observations from a re-analysis of the deposited data

How the results depend on the processing

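Each of the 30 named genes with a call kept its direction in every alternative that was run. Calls were lost for 15 of them, in 13 only where a library was left out. With the replicate block, rises and falls numbered 1792 and 1523, and no named gene lost its call. Total counts gave 968 falls (TMM 558) and, with the block, 1090 rises and 2285 falls. With the block, DESeq2's size factors gave 2041 and 1432 and the upper quartile 2169 and 1368, both added after seeing the data. DESeq2 called 1709 and 1188 (2590 and 1835 with the block), limma-voom with the block 1912 and 1708. The 4 libraries alone gave 959 falls, and 2491 rises and 2234 falls with the block. The cause of these shifts was not tested. Without 1 of the 10 libraries, rises ranged from 254 to 724 and falls from 65 to 724. With the block and without 1 of the 4 compared libraries, also added after seeing the data, rises were 821, 788, 784 and 1098 and falls 519, 572, 898 and 892 (without gastrula replicates 1 and 2, then syncytial blastoderm replicates 1 and 2). Leaving out a library also changed the filter, which then passed 11565 to 12118 genes. Thinning all libraries to the depth of the shallowest gave 737 and 600. The median log2 change of all genes was 0.24 with TMM, -0.11 with total counts, 0.36 with DESeq2's size factors and 0.41 with the upper quartile. The switched-on genes numbered 211 to 328 and the cleared genes 26 to 52 under other scalings, floors, thinning and left-out libraries. Depth limits the size of rises from near 0, since 351 of the 713 had at most 3 reads in each syncytial blastoderm library.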

Other observations

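Several of the most abundant genes differed more between replicate numbers than between the stages compared; they were chosen after their values were seen. MDOA010420 had 2459 and 24640 CPM in gastrula replicates 1 and 2, against 3619 and 10850 CPM in the syncytial blastoderm replicates, and replicate 2 was the higher library at all 5 stages, at 2481 and 30630 CPM by dorsal closure. MDOA015658, whose mean at syncytial blastoderm was the highest of all genes through replicate 1 alone, went the other way, with 5331 and 2841 CPM at gastrula, against 30980 and 4109 CPM at syncytial blastoderm, and replicate 1 was the higher library at all 5 stages. Its edgeR adjusted p was 0.324 without the block and 0.039 with it (log2 fold change -2.10 and -1.44).

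Some large losses were likewise called only with the block. MDOA014323 had 212.4 and 487.2 CPM at gastrula, against 1822 and 6647 CPM at syncytial blastoderm (edgeR adjusted p = 0.0631 without the block and 0.000149 with it). MDOA015215 had 6.83 and 78.5 CPM at gastrula, against 948.9 and 2515 CPM at syncytial blastoderm, and 98.3 and 1075 CPM at dorsal closure (edgeR adjusted p for gastrula against syncytial blastoderm = 0.147 without the block and 0.000742 with it). In both genes replicate 2 was the higher library at each stage.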
